A study of Gallus gallus with 6 samples.

Results

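In the eyelids of 6 Lindian chickens, a native Chinese breed, 39 loci had a higher RNA level in every bird with light-yellow eyelids than in any bird with black eyelids. They were chosen by these same levels. A locus was taken when its mean was at least 1 FPKM (fragments per kilobase, relative to a fragment total for the library). In addition, the lowest light-yellow bird had to lie above the highest black bird. The colour means of log2(FPKM + 1) also had to differ by at least 0.8. The table listed 17780 loci, and 13253 of them reached a mean of 1 FPKM, so the 39 loci made up 0.294% of those. Because the difference between the colours selected them, that difference is described here and not tested.

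The 6 birds were all 30 weeks old at slaughter and received no treatment that the labels mention. They fell into 3 with black and 3 with light-yellow eyelids, and each bird gave 1 library of eyelid RNA, so replicates are separate birds. What separates the groups by label is the colour of the eyelid alone, and neither genotype nor sex is given in the sources used here. An eyelid sample is a bulk mixture of skin and underlying tissue, in which fewer cells of a type and less RNA per cell cannot be told apart.

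Skin colour in birds rests mainly on melanins and carotenoids. Black skin owes its colour to eumelanin, which melanocytes make in melanosomes through tyrosinase and related enzymes and pass on to other skin cells. Yellow tones in chicken skin come from dietary carotenoids, which the enzyme BCO2 can cleave to colourless products. None of the loci below could be assigned to these pathways. The identifiers come without gene names, and 0 of them occurred in the gene table used here, which has 25635 entries. The loci are therefore given by identifier, no role is stated for any, no sequence is shown, and the labelled tissue was not checked against markers. An identifier beginning with ENSGALG is an Ensembl chicken gene. Identifiers of another form, such as Novel00835, are called non-Ensembl loci.

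The reads behind the FPKM values were recovered from the whole-number steps between them, which also gave the length of each locus. The totals that scale the FPKM values lay between 17116783 and 20621850 reads per library. From 99.54% to 99.6% of each total fell in the loci with recovered reads. Reads outside the listed loci are hardly part of these totals, so they do not give the full sequencing depth. A member was covered by a median of 102 reads per library, 12 of the 39 had at least 100 reads in every library, and 13 had 10 reads or fewer in at least 1 black library. Whether counting used strand is not given, so a locus may hold reads of one that overlaps it on either strand.

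The widest difference was that of ENSGALG00000023760, a locus of 1545 bases. Its level was 7.06, 3.86 and 9.07 FPKM in black-eyelid birds 1, 2 and 3 and 81.1, 34.9 and 164 FPKM in light-yellow birds 1, 2 and 3. Every light-yellow bird was at least 3.85 times the highest black bird, and light-yellow bird 3 stood well above its own group. The means were 6.66 ± 2.63 (SD, n = 3) and 93.4 ± 65.5 FPKM (SD, n = 3), a ratio of 14 and a log2 difference, light-yellow minus black, of 3.42 (SE 0.71). Behind these values were 225, 102 and 275 reads in black and 2233, 1106 and 4930 reads in light-yellow eyelids. This was the only one of the 39 whose 6 birds spanned 4 or more on the log2(FPKM + 1) scale.

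Next came ENSGALG00000024348, at 14.2, 5.67 and 1.97 FPKM in black birds 1, 2 and 3 and at 38.5, 27 and 45.1 FPKM in the light-yellow birds in the same order. Here the spread was mainly on the black side, where bird 1 was high and bird 3 low. The log2 difference was 2.47 (SE 0.71). ENSGALG00000019543 also varied mainly among black birds, with 15.9, 2.5 and 9.46 FPKM against 24.4, 29.9 and 21.0 FPKM in light-yellow ones. Black bird 2 was far below the other two black birds. Its log2 difference of 1.60 (SE 0.69) became 0.96 without that bird.

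ENSGALG00000023925 had the smallest SE among the 7 loci with a log2 difference of at least 1.5. Its level was 26.7, 20.2 and 18.1 FPKM in black and 96.1, 68.3 and 90.0 FPKM in light-yellow eyelids. The lowest light-yellow bird was 2.56 times the highest black bird, and the log2 difference of 1.92 had an SE of 0.22. It rested on 571 to 910 reads per black library and 2313 to 2888 reads per light-yellow library. ENSGALG00000018534, a less abundant locus, was at 1.87, 0.71 and 0.056 FPKM in black birds and at 2.54, 5.76 and 2.33 FPKM in light-yellow birds. Its black birds ran from 1 to 35 reads, and the lowest light-yellow bird was only 1.24 times the highest black one.

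Among the 10 widest differences, 5 belonged to non-Ensembl loci. Novel00835 stood at 1.45, 1.14 and 2.15 FPKM in black and at 13.1, 3.36 and 23.8 FPKM in light-yellow eyelids. The log2 difference was 2.18 (SE 0.76). Light-yellow bird 3 was 7.07 times light-yellow bird 2, the widest such range among the 39. Novel00437 was at 1.37, 1.96 and 1.17 FPKM in black and at 9.72, 6.03 and 14.2 FPKM in light-yellow birds. All its light-yellow birds lay at 3.08 times the highest black bird or above, and the log2 difference was 2.08 (SE 0.35).

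Novel00926, a locus of 2964 bases, came closest to being absent from black eyelids while still resting on many reads in light-yellow ones. Its level was 0.15, 0.20 and 0.069 FPKM in black birds, from 9, 10 and 4 reads, and 2.22, 7.49 and 3.04 FPKM in light-yellow birds, from 117, 455 and 175 reads. With the reads of the 3 birds of each colour pooled, the rate was 32.3 times higher in light-yellow eyelids (95% interval 21.3 to 51.2, exact binomial, counting error only). Such an interval leaves out the spread between birds. The locus was chosen by this same contrast, so the interval is no test of it. No other member had a larger ratio of mean FPKM, 30.8, although the log2 difference after adding 1 was 2.08 (SE 0.43), since adding 1 understates the change of low loci.

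At the low end of coverage, Novel02260 had 0, 0 and 2 reads in black birds 1, 2 and 3 and 14, 10 and 13 reads in the light-yellow birds. Its values were 0, 0 and 0.32 FPKM against 2.43, 1.51 and 2.07 FPKM. The ratio of pooled read rates was 18.4, with an interval of 4.74 to 157 for counting error only. Novel01534 had 0, 2 and 16 reads in black birds and 26, 24 and 38 reads in light-yellow birds, or 0, 0.18 and 1.28 FPKM against 2.30, 1.84 and 3.08 FPKM. Its black bird 3 reached nearly the light-yellow range. For Novel01439, named after its values were seen, 1, 1 and 2 reads in black birds stood against 9, 18 and 6 reads. The pooled ratio was 8.19 (interval 2.91 to 31.8, again counting error only). Both loci with an interval here were chosen by this same contrast, so neither interval is a test of it. Black means were 0.11 FPKM for Novel02260 and 0.25 FPKM for Novel01439. Each reached a mean of 1 FPKM over all birds only through the light-yellow birds.

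**Figure D1:**
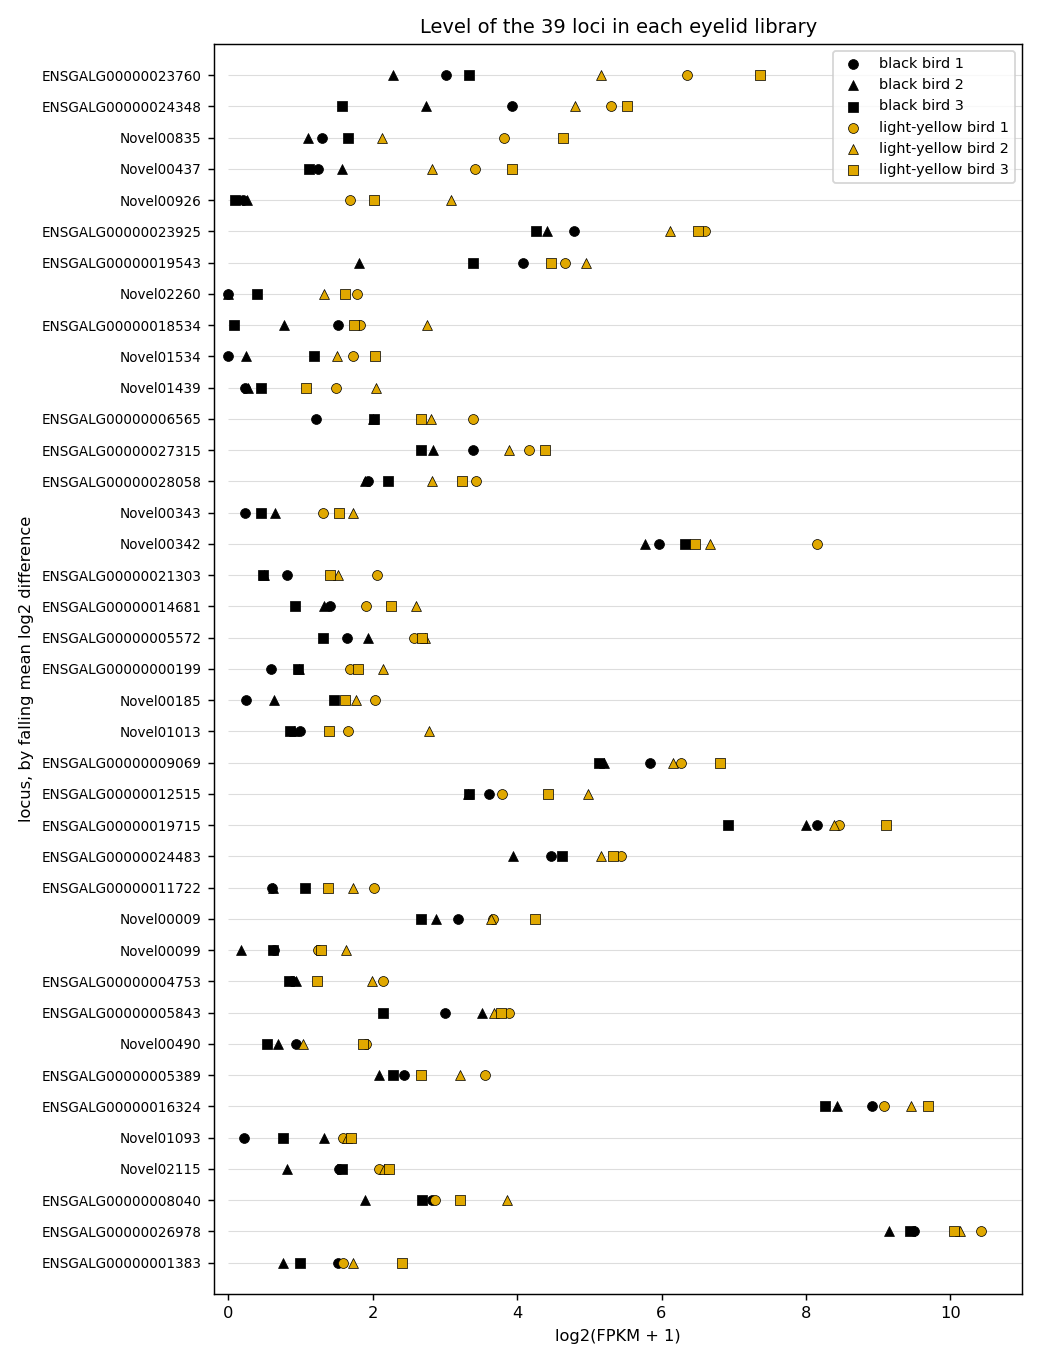
Level of each of the 39 loci in each library, as log2(FPKM + 1) on the x axis, with loci ordered from the widest to the narrowest mean difference. Black symbols are black-eyelid birds and yellow symbols light-yellow birds, with the same shape for the same bird number. In every row all yellow symbols lie to the right of all black ones, as the rule requires, and ENSGALG00000023760 at the top has the widest separation, 1.83 between its nearest birds of different colour.

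The 4 most abundant members were the only ones at a mean of 100 FPKM or more. ENSGALG00000026978 was at 723, 568 and 691 FPKM in black birds and at 1375, 1125 and 1058 FPKM in light-yellow birds, means of 661 ± 81.8 and 1186 ± 167 FPKM (SD, n = 3 each). The ratio was 1.80. On the log2(FPKM + 1) scale the nearest birds of different colour lay 0.55 apart, with an SD of 0.18 among black and 0.20 among light-yellow birds. ENSGALG00000016324 was at 479.8, 344 and 306 FPKM in black and at 541, 702 and 825 FPKM in light-yellow birds, a ratio of 1.83. Its black bird 1 and light-yellow bird 1 nearly met, the latter being 1.13 times the former.

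ENSGALG00000019715 was at 284, 256 and 119.9 FPKM in black and at 352, 336 and 552 FPKM in light-yellow birds. Black bird 3 was low and light-yellow bird 3 high, and the log2 difference of 0.96 became 0.58 without black bird 3. Novel00342, a short locus of 445 bases, was at 61.7, 53.4 and 79.5 FPKM in black and at 284, 101 and 87.1 FPKM in light-yellow birds. Light-yellow bird 1 stood far above all the others. The log2 difference was 1.07 (SE 0.56) with all birds and 0.54 without light-yellow bird 1, which left it under the threshold of 0.8. Its neighbour by number, Novel00343, was also among the 39, at 0.18, 0.56 and 0.37 FPKM against 1.49, 2.32 and 1.89 FPKM. The files give no position for either locus.

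Together the 39 loci took 0.301%, 0.226% and 0.209% of the summed FPKM in black birds 1, 2 and 3 and 0.433%, 0.444% and 0.527% in the light-yellow birds. Between 73.8% and 85.6% of this came from the 3 most abundant members. The other 36 loci took 0.0326% to 0.0466% in black and 0.0887% to 0.123% in light-yellow libraries. The set is thus a small part of the eyelid transcriptome in both colours.

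Beyond the 10 widest differences and the 4 most abundant loci, the members had log2 differences from 0.82 to 1.22 and ratios of mean FPKM from 1.84 to 8.10. Over all 39 loci the median log2 difference was 1.03 and the median ratio 2.85. In 33 the ratio was at least 2, in 19 at least 3 and in 8 at least 5. Over the 13253 loci, the median log2 difference was -0.065 and light-yellow eyelids had the higher mean in 37% of loci, a slight overall shift toward black. That median was -0.011 after median-of-ratios rescaling, 0.0041 after quantile normalization and 0.0074 without light-yellow bird 1.

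The gap between the nearest birds of different colour ranged more widely than the difference of means. Its median was 0.47 on the log2(FPKM + 1) scale. It was at least 1 in 4 loci, ENSGALG00000023760, Novel00926, ENSGALG00000023925 and Novel00437, and at least 0.5 in 18. In 2 it was under 0.1. These were ENSGALG00000008040, whose 6.09 FPKM in black bird 1 nearly equalled 6.28 FPKM in light-yellow bird 1, and ENSGALG00000001383. When each of the nearest 2 libraries was given its exact Poisson 95% interval of the read rate, the intervals were separate for 19 loci and overlapped for 20. Overlap of these intervals does not by itself place the order of the nearest birds within counting error, and the 20 orders were not tested one by one.

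The threshold of 0.8 fell in a continuous range. Just inside were ENSGALG00000026978 at 0.84 and ENSGALG00000001383 at 0.82, the latter with 1.86, 0.69 and 0.996 FPKM in black and 1.997, 2.31 and 4.31 FPKM in light-yellow birds. Just outside were ENSGALG00000014833 and ENSGALG00000028992, both at 0.79 with no overlap between the colours. ENSGALG00000028992 was at 736, 552 and 657 FPKM in black and 1374, 1062 and 954 FPKM in light-yellow birds. Its order of birds was that of ENSGALG00000026978, with a Pearson r of 0.99 between the levels of both over the 6 libraries, a description in which the colour difference itself takes part. ENSGALG00000014833 was at 1509, 1074 and 1211 FPKM against 2415, 2225 and 1904 FPKM. A further 43 loci differed by at least 0.8 toward light-yellow but had overlapping birds. The widest of these was Novel01603 at a log2 difference of 2.61, with 26.5 and 45.3 FPKM in light-yellow birds 1 and 3 but 0.22 FPKM in light-yellow bird 2.

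Both just-outside loci and the most abundant member lay among the 176 loci with a mean of 500 FPKM or more, a class looked at after these values were seen. In this class 129 loci had the higher mean in light-yellow eyelids. There was no overlap between the colours in 41 toward light-yellow and in 3 toward black, and the median log2 difference was 0.19. Over all 13253 loci the corresponding numbers were 287 toward light-yellow (2.17%) and 575 toward black (4.34%). After median-of-ratios rescaling the abundant class had 39 and 3 such loci, and all loci had 399 and 420. After quantile normalization all loci had 443 and 386, so the overall balance between the directions depended on the scaling. Of the 176 abundant loci, 2 were members and 1 met the mirrored rule. These are larger shares than the 0.294% and 0.423% of all 13253 loci, but rest on very few loci. The rest of the 41 without overlap toward light-yellow differed by less than 0.8.

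**Figure D2:**
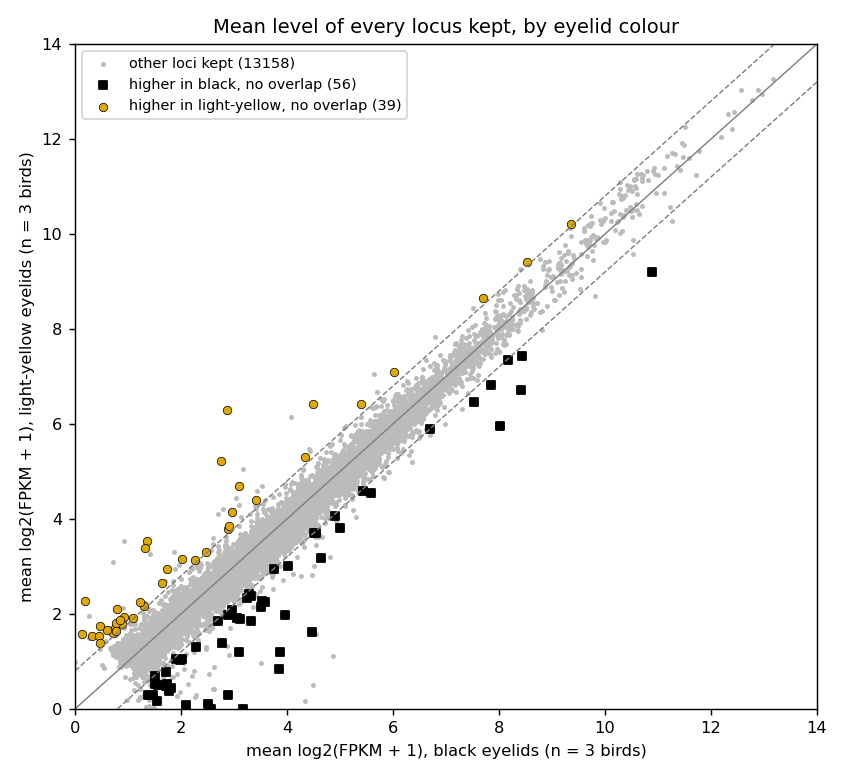
Mean log2(FPKM + 1) over the 3 black-eyelid birds (x axis) and the 3 light-yellow birds (y axis) for each of the 13253 loci whose mean reached 1 FPKM, one point per locus. The solid line marks equal means and the dashed lines a difference of 0.8. The 39 loci higher in light-yellow eyelids are yellow and the 56 that met the mirrored rule are black squares, and points beyond a dashed line that are still grey had overlapping birds.

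The mirrored rule, with the colours exchanged, was met by 56 loci, or 0.423% of the 13253. Their median log2 difference was 1.16 in size, and 10 of them reached 2 in size, against 5 of the 39. Within colours the sets differed in where the birds spread. The median SD of log2(FPKM + 1) was 0.28 among black and 0.34 among light-yellow birds for the 39 loci, and 0.52 and 0.21 for the 56. The order seen in the 39 turned in several settings, each with its own loci that then met the rule. A pseudocount of 0.1 gave 60 loci, at 0.43 among black and 0.35 among light-yellow birds. One of 0.5 gave 45 loci (0.37 and 0.34) and quantile normalization 55 (0.34 and 0.32). Without black bird 2 there were 52 loci (0.37 and 0.35). The order also turned without light-yellow bird 1 (0.43 and 0.22), bird 2 (0.41 and 0.32) or bird 3 (0.35 and 0.26). In the other settings it held. In 22 of the 39 loci (56.4%) the light-yellow birds spread more, not far from the 48.6% of all 13253 loci, against 25% of the 56. Over all 13253 loci the medians were 0.28 and 0.27. The rule favours loci with little spread, so these values are given as a description.

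Which light-yellow bird was highest was not fixed by the rule. It was bird 1 in 14 loci, bird 2 in 12 and bird 3 in 13. Over the 13253 loci, bird 1 was highest in 26.7% and lowest in 54.9%, whereas among the 39 it was highest in 35.9% and lowest in 30.8%. This count moved with the scaling. After median-of-ratios rescaling bird 1 was highest in 24 of the 49 loci that then met the rule, and after quantile normalization in 23 of 55. The share over all loci was not computed at these scalings, so the 26.7% is no background for those counts. Among black birds, bird 1 was highest in 19 of the 39 loci, bird 3 in 12 and bird 2 in 8. Over all loci, the shares were 40.04% for bird 1, 29.9% for bird 3 and 30.1% for bird 2, against 48.7%, 30.8% and 20.5% of the 39.

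The order bird 3, bird 1, bird 2 was the most frequent among light-yellow birds, in 9 of 39 loci (23.1%), against 11.3% of all loci. Others came close. Bird 1, bird 2, bird 3 was seen in 8 loci (20.5%, against 10.1% of all loci). Bird 2, bird 3, bird 1 was also seen in 8 (20.5%, against 27.1%). The most frequent order held for the 4 widest differences, ENSGALG00000023760, ENSGALG00000024348, Novel00835 and Novel00437. The deviations of ENSGALG00000023760 and Novel00835 from their colour means ran together over the 6 libraries, with a Pearson r of 0.95. This r was among the highest of all pairs of the 39 loci, so it is given as a description only. A different pattern, with light-yellow bird 2 far above the others, was seen in Novel00926 and in Novel01013. The latter was at 0.98, 0.88 and 0.81 FPKM in black birds and 2.14, 5.87 and 1.63 FPKM in light-yellow birds. In 14 loci the highest light-yellow bird was at least 2 times the lowest. At the other end, ENSGALG00000005572 was at 4.95, 5.61 and 5.39 FPKM in light-yellow birds, against 2.13, 2.81 and 1.49 FPKM in black ones. The last 2 loci were picked after their values were seen.

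Much of the variation between birds of one colour followed a single axis. It held 54.6% of the within-colour variance over the 13253 loci and set black bird 1 (score -39.7) and light-yellow birds 2 and 3 (-22.4 and -14.1) against black birds 2 and 3 (7.19 and 32.5) and light-yellow bird 1 (36.5). The median absolute correlation of a locus with this axis was 0.73 over all loci and 0.44 over the 39. It was at least 0.8 in size for 40.5% of all loci and for 6 of the 39. ENSGALG00000006565 had the strongest positive value, 0.95, with 1.32, 3.01 and 3.04 FPKM in black and 9.44, 5.99 and 5.36 FPKM in light-yellow birds. ENSGALG00000016324 had the strongest negative one, -0.94. Loci that vary strongly along an axis crossing the colours tend to have overlapping birds, so the rule itself bears on this comparison.

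**Figure D3:**
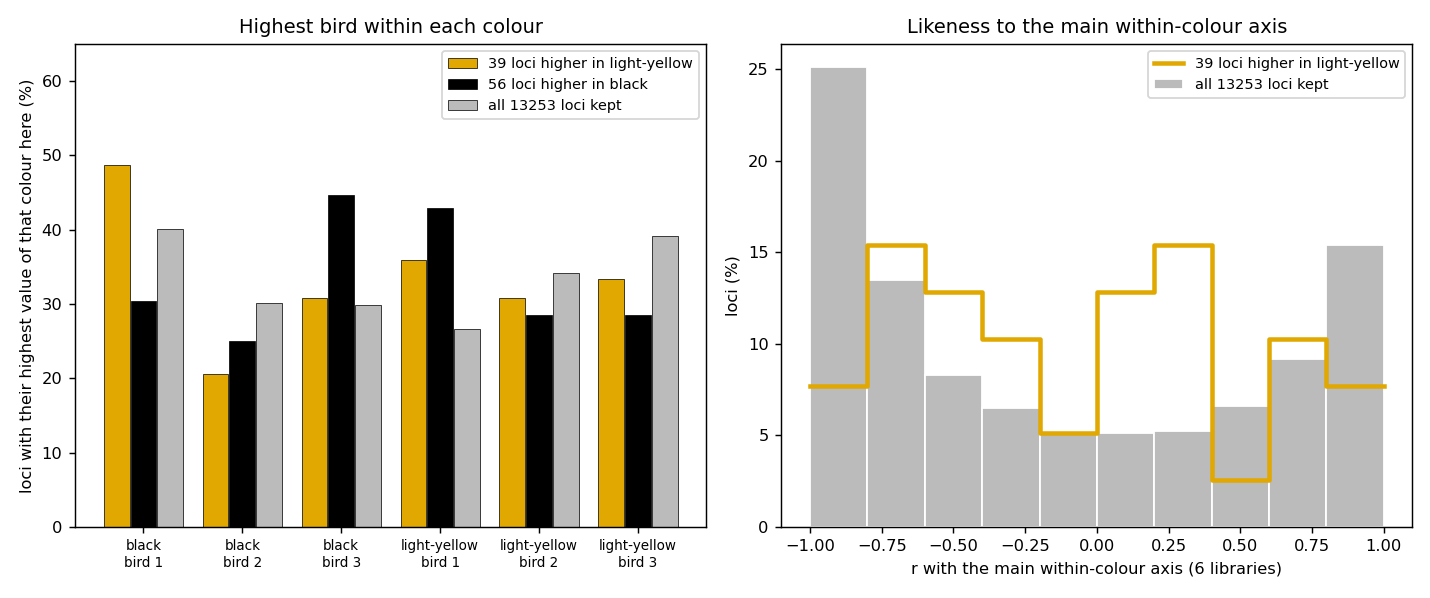
Left, the share of loci (%) whose highest value within a colour was in the bird named on the x axis, for the 39 loci higher in light-yellow eyelids, the 56 higher in black and all 13253 loci. Right, the distribution of the correlation of each locus with the main within-colour axis over 6 libraries, as a share of loci (%). All loci pile up at both ends, and the 39 loci lie more toward the middle, with a median absolute value of 0.44 against 0.73. The 56 loci are not drawn on the right, and their median absolute value was 0.56.

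The 39 loci were shorter than most. Their median length was 1300 bases, against 2041 bases over all loci and 1499.5 bases for the 56 higher in black. The rule was met by 0.631% of loci under 1000 bases, 0.354% of those from 1000 to under 2000 bases and 0.133% of those of 2000 bases or more. The mirrored rule fell in the same order, at 0.75%, 0.43% and 0.296%. Length was no part of the rule, but shorter loci have fewer reads at the same FPKM and so more counting error, whose part in these shares was not tested.

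Non-Ensembl loci made up 15 of the 39, or 38.5%, against 11.1% of all loci kept and 28.6% of the 56. With a minimum mean of 5 FPKM they were 4 of the 19 loci that met the rule. Some of the 15 had a black mean well under 1 FPKM, such as Novel00926 at 0.14 and Novel00343 at 0.37. Those reached a mean of 1 FPKM over all birds only through the light-yellow birds. The rule was met by 1.02% of the non-Ensembl and 0.204% of the Ensembl loci. Non-Ensembl loci were also shorter, with a median of 1047 bases against 2141, and less abundant, at a median of 4.83 FPKM against 14 FPKM. Among loci with a mean from 1 to 10 FPKM, 1.34% of the non-Ensembl and 0.283% of the Ensembl ones met the rule. From 10 to 100 FPKM the shares were 0.22% and 0.124%, resting on 1 and 8 loci. The part that length and level play in this difference between the kinds of locus was not tested further.

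By level, 26 of the 39 had a mean from 1 to 10 FPKM, 9 from 10 to 100 FPKM and 4 of 100 FPKM or more. As shares of all loci at those levels these were 0.467%, 0.13% and 0.507%. The 56 loci in the other direction had the same shape, with 0.665%, 0.174% and 0.887%.

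**Figure D4:**
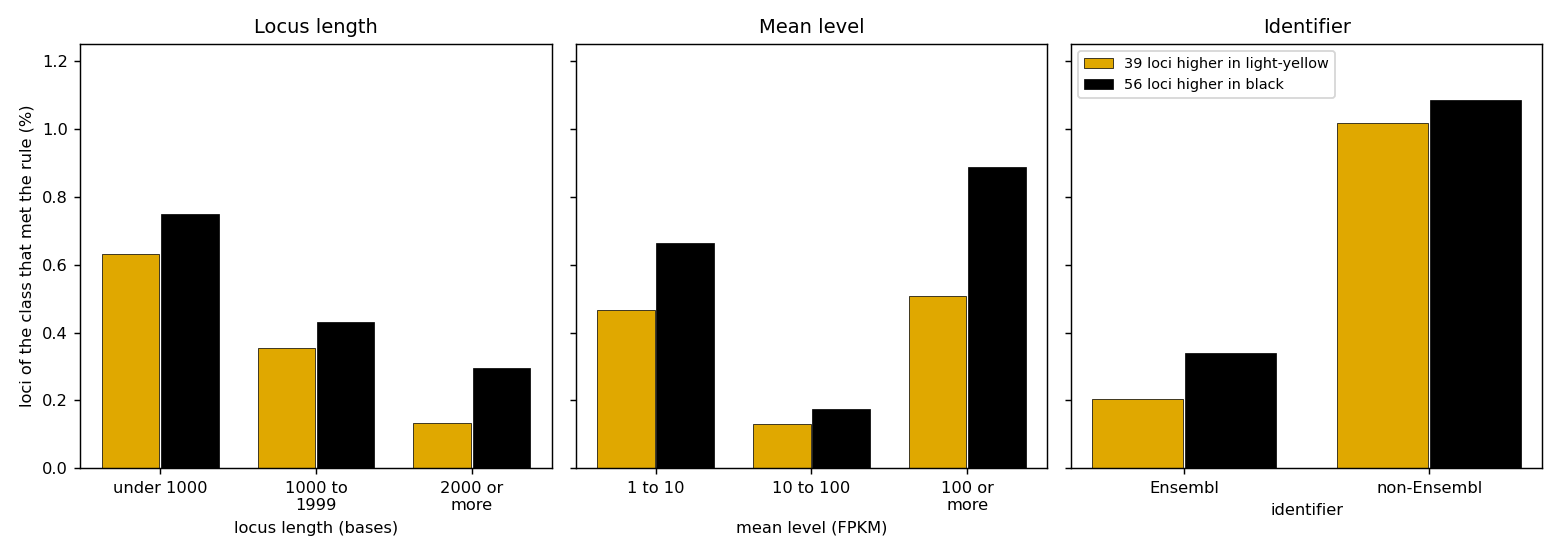
Share (%) of the loci of each class that met the rule, by length in bases, by mean level in FPKM and by kind of identifier. Yellow bars are the 39 loci higher in light-yellow eyelids and black bars the 56 higher in black. In both directions the share fell with length, was lowest from 10 to 100 FPKM and was higher for non-Ensembl than for Ensembl loci.

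Outside the 39, the loci whose levels most resembled ENSGALG00000023760 over the 6 libraries were ENSGALG00000014483 (Pearson r 0.99), ENSGALG00000026371 (0.98) and ENSGALG00000006075 (0.97). These were the highest r found in a search of all other loci kept, over only 6 libraries. The colour difference that chose ENSGALG00000023760 takes part in r, so the values are a description only. The loci missed the rule through smaller differences. ENSGALG00000014483 was at 9.34, 8.43 and 9.21 FPKM in black birds and 12.2, 11.4 and 13.8 FPKM in light-yellow birds, a log2 difference of 0.42. ENSGALG00000026371 came nearest to the threshold at 0.71, with 1.95, 1.31 and 1.71 FPKM against 3.39, 2.73 and 3.92 FPKM. In ENSGALG00000006075 the difference was 0.36.

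The rule was then applied again with each bird left out in turn. Leaving out a bird cannot create overlap, so a member could fail only by its difference or its mean level. The widest differences had the most room above 0.8. The rule was still met in all 6 cases by 17 of the 39 loci, 4 of them non-Ensembl, and these included 9 of the 10 widest differences. The exception among the 10 was Novel02260, which met it in 3 of 6 cases. The other 22 loci failed in at least 1 case, by falling under 0.8 in log2 difference or under a mean of 1 FPKM. Median-of-ratios rescaling moved the median log2 difference over all loci from -0.065 to -0.011, and quantile normalization moved it to 0.0041. A shift toward light-yellow makes it easier for members to remain. After median-of-ratios rescaling all 39 remained, and quantile normalization kept 37. The 2 lost were ENSGALG00000016324 and ENSGALG00000026978, which are among the most abundant. ENSGALG00000026978 fell to a log2 difference of 0.72. ENSGALG00000016324 kept 0.83, above the threshold of 0.8, so it was lost because its colours then overlapped.

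Several loci of the 17 that met the rule whichever bird was left out had moderate differences, and are given here after their values were seen. ENSGALG00000028058 was at 2.82, 2.71 and 3.62 FPKM in black and at 9.81, 6.06 and 8.40 FPKM in light-yellow birds, and the lowest light-yellow bird was 1.68 times the highest black one. ENSGALG00000027315 was at 9.45, 6.14 and 5.36 FPKM against 16.8, 13.8 and 19.8 FPKM. The SE of the log2 difference was 0.21 and 0.26. For ENSGALG00000027315, and for ENSGALG00000000199, the counting intervals of the nearest birds of different colour overlapped. ENSGALG00000000199 was at 0.504, 0.97 and 0.95 FPKM in black and at 2.21, 3.39 and 2.46 FPKM in light-yellow birds, from 10 to 18 and 38 to 67 reads. ENSGALG00000014681, the longest member at 5538 bases, was at 1.65, 1.51 and 0.89 FPKM against 2.75, 5.04 and 3.75 FPKM. Black bird 3 was the lowest of its colour and light-yellow bird 2 the highest of its own. Among the more abundant of these, ENSGALG00000009069 was at 56.5, 36.0 and 34.2 FPKM in black and at 76.3, 70.5 and 111 FPKM in light-yellow birds. Black bird 1 came nearest to the light-yellow range there, at a distance of 0.32 on the log2(FPKM + 1) scale.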

How the data were processed

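The authors deposited 1 table of FPKM values, with a column per library and an identifier per locus. Per the submitters' processing notes, the tools listed include TopHat, Cufflinks 2.1.1, HTSeq 0.6.1 and DESeq 1.18.0 in roles that are not stated. The sources used here do not name a genome build or annotation. Per the labels' protocols, RNA was extracted with TRIzol and libraries were built with a NEBNext Ultra kit.

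From the deposited FPKM, log2(FPKM + 1) was computed and the rule applied (mean of at least 1 FPKM, no overlap, difference of at least 0.8). Reads, totals and lengths were recovered from ratios between libraries (within 0.02 of whole numbers), covering 99.8% of values above 0. The smallest length that gave whole reads was taken. This step was tested on data simulated with the recovered lengths, so that test cannot show whether those lengths are right. A unit may be a read or a read pair. Intervals cover counting error only. SEs come from the spread between birds within each colour.

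The members and lists were chosen with earlier results of these data known, and the members' colour difference was therefore not tested. Loci named in the text were the 10 with the widest difference, the 4 most abundant, the 4 with the widest gap, 2 just inside and 2 just outside the threshold, and 3 of most similar profile. Others named were picked after their values were seen. Gene lists could not be matched to identifiers and were not used. Python 3.11.15, numpy 2.4.6, pandas 2.3.3, scipy 1.17.1 and matplotlib 3.10.9 were used.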

Additional observations from a re-analysis of the deposited data

How the results depend on the processing

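Against 39 loci higher in light-yellow and 56 higher in black eyelids, a pseudocount of 0.1 gave 60 toward light-yellow, 25 of them non-Ensembl. A minimum mean of 5 FPKM gave 19 and 33, with 4 non-Ensembl loci in the former. A difference of at least 0.6 gave 73 and 112, and one of at least 1 gave 23 and 36. Fewer or more loci follow from the construction of these settings. A pseudocount of 0.5 gave 45 toward light-yellow, no filter 39, median-of-ratios rescaling 49 and 46, and quantile normalization 55 and 51. Leaving out 1 bird gave 52 to 151 loci toward light-yellow and 59 to 307 toward black, since fewer birds make it easier to avoid overlap. The highest numbers came without black-eyelid bird 1, when 37 of the 39 remained and 114 others joined. Without light-yellow bird 1 the count was 99, with 30 of the 39. The median log2 difference of the set moved by less than the spread between birds in every alternative. Each alternative chose its own loci by the cut on the difference, which bounds this median from below. It was 0.84 at a cut of 0.6 and 1.21 at a cut of 1, so its steadiness is partly built in. The 15 members named by rule gave 210 values of the log2 difference over 14 alternatives. Of these values, 8 moved by more than the spread between birds, all with a smaller pseudocount. Novel00926 and Novel02260 moved at both 0.1 and 0.5, so the 8 values come from fewer members. For Novel00926 the difference went from 2.08 to 4.04 at 0.1. The filters and thresholds leave a locus's own difference unchanged by construction, and the rule fixes its sign when a bird is left out or the pseudocount changes. No paired analysis was possible because the results come from no test, and nothing in the labels says that bird numbers pair the birds. Depth limits the loci of few reads, such as Novel02260 and Novel01439.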
